A study of Homo sapiens with 10 samples.

Results

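The genes described here encode the enzymes that carry glucose 6-phosphate through glycolysis to pyruvate and lactate, the enzymes of the pentose phosphate pathway, and a few neighbours of both. They were taken from a list of 35 gene symbols and matched by name to the rows of the deposited tables. All 35 had a row among the 17642 genes of the siRNA table, and 33 had a row among the 13029 genes of the *ZMAT3* table, where *PGLS* and *FBP1* had none. RNA-seq was performed on HCT116 cells, an established human colorectal cancer line, in 2 experiments with 10 libraries in all. The first compared 3 *ZMAT3*-WT libraries with 3 *ZMAT3*-KO libraries, and the second compared 2 libraries from cells transfected with a control siRNA (siCTRL) with 2 from cells transfected with a pool of 4 siRNAs against *p53* (si*p53*).

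The *ZMAT3*-KO cells had been made by CRISPR/Cas9 with a pair of sgRNAs that flank the p53 response element in the second intron of *ZMAT3*, an RNA-binding protein gene that p53 induces. The *ZMAT3*-WT and *ZMAT3*-KO cells were isolated from single cells after the same electroporation and puromycin selection, and the study describes its *ZMAT3*-KO line as a single clone. The sample descriptions of these 6 libraries also carry the abbreviations EV and unt, which the labels do not explain, and no library was treated with a drug. Differences between the groups therefore compare cultures of clones, and p-values measure the spread between those cultures. The time from siRNA transfection to harvest of these libraries is not given in the sources used here.

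Glycolysis splits glucose into a pair of pyruvate molecules, yields ATP and NADH, and ends in lactate where lactate dehydrogenase regenerates NAD+. The pentose phosphate pathway branches off at glucose 6-phosphate, makes NADPH in its oxidative part and ribose 5-phosphate for nucleotides, and returns sugar phosphates to glycolysis in its non-oxidative part. Cancer cells typically express most of these enzymes at a high level, and several steps are served by isoenzymes from different genes that are regulated separately.

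In the first experiment the targeted gene moved as labelled. *ZMAT3* was 5.00, 5.20 and 5.26 log2 CPM in *ZMAT3*-WT and 2.25, 2.34 and 2.20 log2 CPM in *ZMAT3*-KO, so its mRNA was reduced and not absent. Of 10 epithelial and intestinal markers, 6 had a row in the *ZMAT3* table and 7 in the siRNA table, with *CDX1*, *CEACAM5* and *LGR5* in neither. Their summed level was 5757 to 6083 CPM in *ZMAT3*-WT and 3160 to 3242 CPM in *ZMAT3*-KO, mainly through *KRT8*, *KRT18* and *KRT19* (log2 fold changes of -0.94, -0.82 and -1.75), and the part of this difference in the results below was not tested. In the siRNA table the sum was 3737 to 3972 FPKM with siCTRL and 3532 to 4170 FPKM with si*p53*. Of 11 leukocyte, fibroblast and endothelial markers, the *ZMAT3* table held only *COL1A1*, at 9.16 to 9.79 CPM in *ZMAT3*-WT and 10.4 to 10.9 CPM in *ZMAT3*-KO. The siRNA table held 4 of them, summing to 4.36 to 5.72 FPKM with siCTRL and 6.38 to 7.29 FPKM with si*p53*, nearly all of it *COL1A1*, while *CD14*, *PDGFRB* and *VWF* stayed at or below 0.23 FPKM. These are bulk libraries, in which fewer cells of a type and less RNA per cell cannot be told apart.

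The levels of the 35 genes were compared with each other only in the siRNA libraries, whose FPKM values are per length. *GAPDH*, which oxidises glyceraldehyde 3-phosphate, was the highest, with 4651 FPKM on average over the 4 libraries and rank 12 in the whole table. *ENO1*, the main enolase, followed at 1941 to 2865 FPKM, then the pyruvate kinase gene *PKM* at 1685 to 2322, the aldolase gene *ALDOA* at 1710 to 2205 and the lactate dehydrogenase gene *LDHA* at 1165 to 1803 FPKM. Neighbours in this part of the order overlapped in their ranges except *GAPDH* and *ENO1*. The pentose phosphate genes spread widely, from 410 to 640 FPKM for the transketolase gene *TKT* and 184 to 317 FPKM for *PGD* down to 1.34 to 2.67 FPKM for *H6PD*, whose enzyme runs the first steps of the pathway in the endoplasmic reticulum. *FBP1*, the gluconeogenic fructose bisphosphatase, was at 0.13 and 0.07 FPKM with siCTRL against 0.33 and 0.14 FPKM with si*p53*, too low to be tested.

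**Figure D1:**
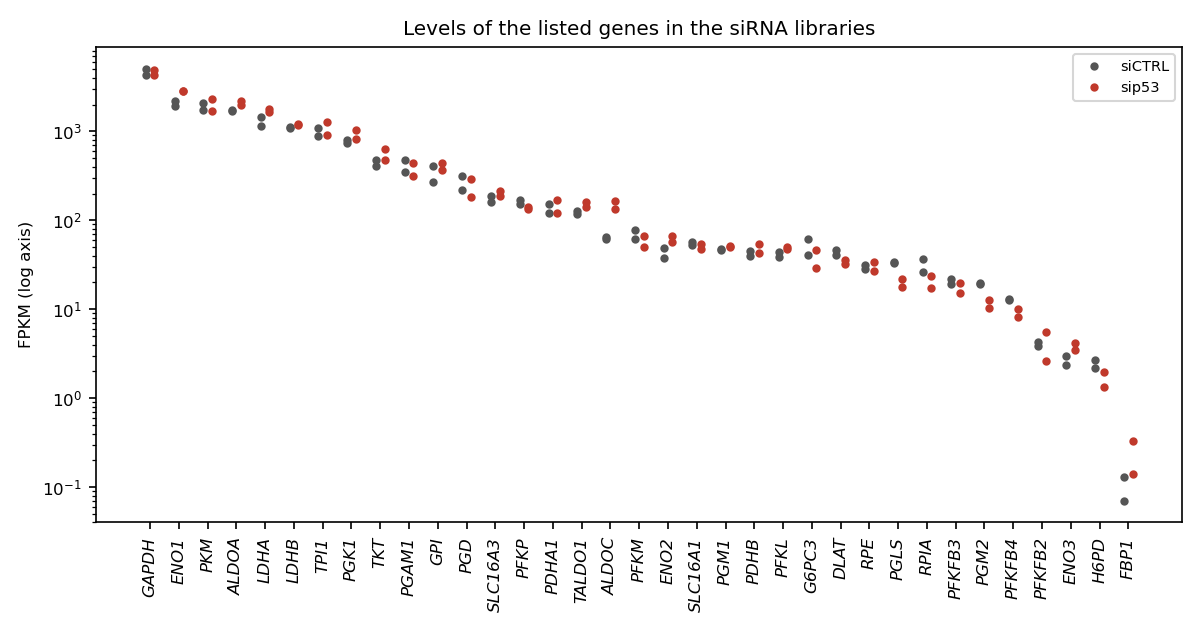
FPKM on a log axis for each of the 35 genes in the siRNA libraries, ordered by mean, with 2 siCTRL libraries in grey and 2 si*p53* libraries in red. *GAPDH* led at 4282 to 5083 FPKM and *FBP1* was last at 0.07 to 0.33 FPKM, and *ALDOC* is the gene whose red points stand farthest above the grey ones.

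The first comparison asked how the RNA of these enzymes differs between *ZMAT3*-WT and *ZMAT3*-KO cells. Of the 33 genes with a row, 12 rose and 9 fell in *ZMAT3*-KO cells at an adjusted p of 0.05 (limma, Benjamini-Hochberg over all genes), and 12 did not pass. That is 36.4% higher and 27.3% lower, against 28.7% and 30.1% of all 13029 genes, so both shares were near the background. The differences were small. None of the 33 passed when limma's call also required a 1.5-fold difference, a rule that 8.96% of all genes met, while at an unadjusted limma p under 0.05 and no fold rule 13 were higher and 9 lower. The median log2 fold change of the 33 genes was 0.006, against -0.005 for all genes, and 19 of the 33 were above 0. The summed level of the 33 genes was 19790 to 20380 CPM in *ZMAT3*-WT and 20190 to 20470 CPM in *ZMAT3*-KO, which overlap.

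**Figure D2:**
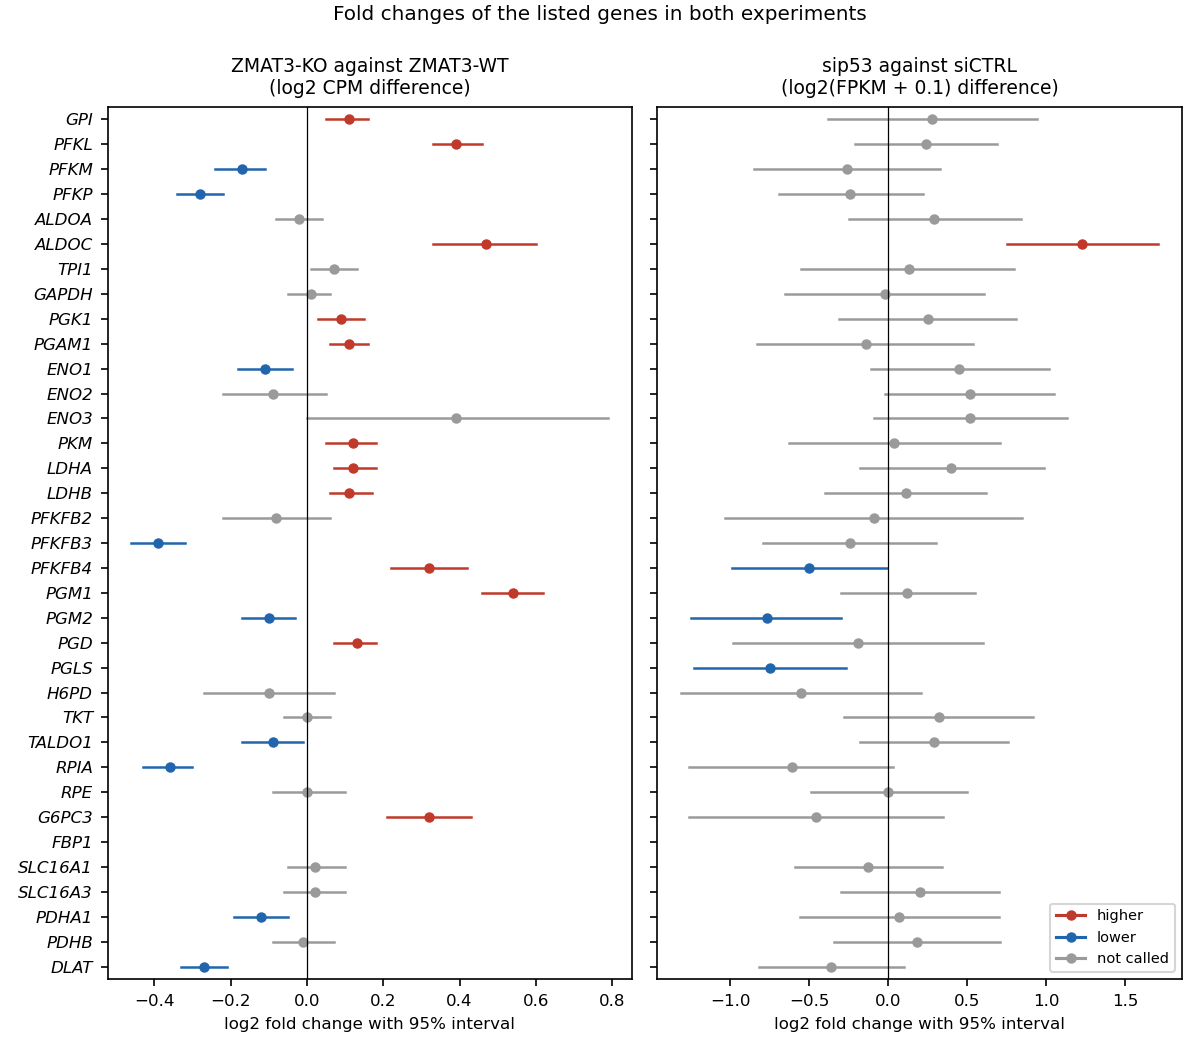
Log2 fold changes with 95% confidence intervals for each listed gene, in pathway order, for *ZMAT3*-KO against *ZMAT3*-WT (left, 3 libraries a group) and si*p53* against siCTRL (right, 2 libraries a group), with genes called higher in red, lower in blue and not called in grey. Differences on the left run from -0.39 to 0.54 and are shown on a narrower axis than those on the right, which run from -0.77 to 1.23. *FBP1* was not tested.

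The largest rise was that of *PGM1* (ENSG00000079739, chr1:63593411-63660245 in hg38), the phosphoglucomutase that links glycogen and glucose 6-phosphate. In *ZMAT3*-WT it was measured at 5.98, 5.94 and 5.88 log2 CPM and in *ZMAT3*-KO at 6.52, 6.43 and 6.45. The groups did not overlap, with a log2 fold change of 0.54 ± 0.0367 (SE) and an adjusted p of 9.05e-08 (limma), or 1.45-fold. *PGM2*, whose enzyme acts mainly on pentose phosphates, went the other way, from 6.19, 6.19 and 6.22 to 6.12, 6.12 and 6.06 log2 CPM (log2 fold change of -0.10, adjusted p of 0.0147). That small fall was not called without *ZMAT3*-WT replicate 3 (-0.09, adjusted p of 0.0653) or without *ZMAT3*-KO replicate 3 (-0.08, adjusted p of 0.0723).

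Phosphofructokinase commits fructose 6-phosphate to glycolysis, and its 3 genes did not move together. *PFKL*, the liver-type subunit (chr21:44300051-44327376), was 6.72, 6.67 and 6.65 log2 CPM in *ZMAT3*-WT and 7.09, 7.05 and 7.08 in *ZMAT3*-KO, a log2 fold change of 0.39 ± 0.0299 with an adjusted p of 2.69e-07 in limma. The muscle-type subunit *PFKM* was 7.28, 7.26 and 7.28 against 7.09, 7.13 and 7.07 log2 CPM, and the platelet-type subunit *PFKP* was 8.38, 8.34 and 8.35 against 8.11, 8.05 and 8.08 log2 CPM. Both of these fell, by 0.17 and 0.28 on the log2 scale (adjusted p of 0.000187 and 2.74e-06, limma), and no group overlapped the other for any of the 3 genes. Summed over the 3 genes, the step was at 595, 579 and 581 CPM in *ZMAT3*-WT and 549, 538 and 540 CPM in *ZMAT3*-KO. The total was thus 0.927-fold, without overlap, and the exact permutation test gave p = 0.1, the smallest that 3 against 3 libraries allow.

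The enzymes that make and remove fructose 2,6-bisphosphate, the strongest activator of phosphofructokinase, also diverged. *PFKFB3* (chr10:6144934-6254644), whose product has mainly kinase activity, was 6.38, 6.40 and 6.35 log2 CPM in *ZMAT3*-WT and 5.99, 6.03 and 5.96 in *ZMAT3*-KO. It fell by 0.39 ± 0.0321 on the log2 scale (adjusted p of 5.69e-07, limma). *PFKFB4* rose from 3.84, 3.85 and 3.91 to 4.16, 4.18 and 4.21 log2 CPM (log2 fold change of 0.32, adjusted p of 7.46e-05), while *PFKFB2* had overlapping values of 3.74, 3.90 and 3.87 against 3.75, 3.86 and 3.66 log2 CPM. The 3 genes together were at 111 to 113 CPM in *ZMAT3*-WT and 93.2 to 97.8 CPM in *ZMAT3*-KO, 0.851-fold and not overlapping.

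In the aldolase step, which splits fructose 1,6-bisphosphate, the minor isoform moved and the major one did not pass. *ALDOC*, known for its expression in brain (chr17:28573115-28576948), was 4.67, 4.45 and 4.57 log2 CPM in *ZMAT3*-WT and 5.05, 4.92 and 5.12 in *ZMAT3*-KO. It rose by 0.47 ± 0.0619 on the log2 scale, 1.38-fold, with an adjusted p of 3.66e-05 (limma), and the groups did not overlap. *ALDOA* was 10.43, 10.39 and 10.41 against 10.43, 10.35 and 10.39 log2 CPM, with a log2 fold change of -0.02 and a 95% interval of -0.08 to 0.04. The summed aldolase level overlapped between the groups, at 1368 to 1404 CPM in *ZMAT3*-WT and 1335 to 1412 CPM in *ZMAT3*-KO.

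Downstream of aldolase the differences were small. *GPI*, which precedes phosphofructokinase, *PGK1* and *PKM*, which make ATP, *PGAM1*, which moves the phosphate group between them, *LDHA* and *LDHB*, which interconvert pyruvate and lactate, and *PGD* of the oxidative pentose phosphate pathway were the 7 genes that rose by less than 0.15 on the log2 scale. Their fold changes were 1.06 to 1.09 and their adjusted p-values 0.000875 to 0.00979 (limma). *LDHA*, for example, was 10.48, 10.48 and 10.45 log2 CPM in *ZMAT3*-WT and 10.60, 10.60 and 10.57 in *ZMAT3*-KO, and *LDHB* was 10.15 in all 3 *ZMAT3*-WT libraries and 10.27, 10.26 and 10.27 in *ZMAT3*-KO. *PKM* was 10.95, 10.90 and 10.85 against 11.03, 11.03 and 10.99 log2 CPM, and *PGAM1* was 9.81, 9.83 and 9.81 against 9.93, 9.92 and 9.92. In every one of the 7 the lowest *ZMAT3*-KO library stood above the highest *ZMAT3*-WT library. *GPI* was 9.38, 9.32 and 9.33 against 9.46, 9.44 and 9.44 log2 CPM. *PGK1* was 8.90, 8.93 and 8.88 against 9.01, 8.98 and 8.99 log2 CPM, and it was not called without *ZMAT3*-WT replicate 3 (log2 fold change of 0.08, adjusted p of 0.0601). *TPI1*, the triose phosphate isomerase, stood at 10.07, 9.99 and 9.98 against 10.10, 10.06 and 10.10 log2 CPM and just missed the threshold (adjusted p of 0.0515).

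*ENO1* went against these genes. It was 11.68, 11.57 and 11.57 log2 CPM in *ZMAT3*-WT and 11.49, 11.49 and 11.51 in *ZMAT3*-KO, a fall of 0.11 with an adjusted p of 0.0112 (limma). *ZMAT3*-WT replicate 1 stood apart, and without it the fall was 0.07 (adjusted p of 0.0103). The neuronal enolase *ENO2* overlapped, at 3.51, 3.34 and 3.48 against 3.38, 3.33 and 3.35 log2 CPM. The muscle enolase *ENO3* was low and variable, at 0.00, -0.06 and -0.19 against 0.59, 0.20 and 0.14 log2 CPM, and its log2 fold change of 0.39 ± 0.182 did not pass (adjusted p of 0.0801). For the most abundant genes the values themselves are coarse, because all 6 libraries share 1 distribution and a gene's value is set by its rank. *ENO1* held rank 14, 16 and 16 in *ZMAT3*-WT and 19, 19 and 18 in *ZMAT3*-KO, and the values of ranks 14 and 19 are 11.68 and 11.49 log2 CPM in every library.

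*GAPDH*, the reference gene of the study's RT-qPCR, shows this most clearly. It held rank 7 in 5 libraries and rank 6 in *ZMAT3*-KO replicate 1, so its value was 12.18 log2 CPM in those 5 and 12.20 in the other one. Rank 8 has 11.97 log2 CPM, so a change in *GAPDH* that left its rank alone could not appear in this table. In the siRNA table, which is not tied in this way, *GAPDH* was 5083.45 and 4281.73 FPKM with siCTRL against 4291.75 and 4945.89 FPKM with si*p53*. These overlapped, with a log2 fold change of -0.02 and a 95% interval of -0.65 to 0.61. The primers that the study lists for this reference gene are shown because every RT-qPCR value rests on them. They lie at bases 530 to 549 and 596 to 616 of the 1285-base canonical *GAPDH* transcript in GENCODE 44 and span 87 bases. The forward primer also matches transcripts of 6 other genes exactly and the reverse primer those of 2, all of them named as *GAPDH* pseudogenes, and 1 of these genes matches both.
GAPDH forward: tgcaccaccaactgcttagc
GAPDH reverse: ggcatggactgtggtcatgag

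In the non-oxidative pentose phosphate pathway no gene rose. *RPIA* (chr2:88691673-88750929), which makes ribose 5-phosphate from ribulose 5-phosphate, was 6.49, 6.48 and 6.45 log2 CPM in *ZMAT3*-WT and 6.13, 6.10 and 6.10 in *ZMAT3*-KO. It fell by 0.36 ± 0.0299 on the log2 scale (adjusted p of 5.57e-07, limma), or 1.28-fold, without overlap. *TALDO1*, the transaldolase, was 7.70, 7.59 and 7.62 against 7.57, 7.49 and 7.58 log2 CPM, which is barely separated, with an adjusted p of 0.0440. Its call was lost when *ZMAT3*-WT replicate 1 (-0.06) or 3 (-0.10) or *ZMAT3*-KO replicate 1 (-0.10) or 2 (-0.06) was left out, with adjusted p-values of 0.13, 0.0753, 0.0683 and 0.162. *TKT*, the transketolase, was 9.50, 9.42 and 9.42 against 9.45, 9.46 and 9.44 log2 CPM. *RPE*, the ribulose phosphate epimerase, was 5.98, 6.12 and 6.13 against 6.02, 6.09 and 6.12 log2 CPM, and the values of both genes overlapped between the groups.

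In the oxidative part, *PGD* was 8.27, 8.25 and 8.28 log2 CPM in *ZMAT3*-WT and 8.39, 8.38 and 8.41 in *ZMAT3*-KO, without overlap. *H6PD* overlapped, at 3.14, 3.28 and 3.34 against 3.16, 3.27 and 3.03 log2 CPM. *G6PC3*, a phosphatase of glucose 6-phosphate and related sugars in the endoplasmic reticulum, rose from 4.90, 4.93 and 4.87 to 5.30, 5.10 and 5.25 log2 CPM (log2 fold change of 0.32, adjusted p of 0.000133, limma).

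At the exits of the pathway, the pyruvate dehydrogenase genes were lower or overlapping. *DLAT*, the acetyltransferase core of the complex that turns pyruvate into acetyl-CoA, was 7.47, 7.51 and 7.48 log2 CPM in *ZMAT3*-WT and 7.23, 7.20 and 7.21 in *ZMAT3*-KO, a fall of 0.27 with an adjusted p of 3.02e-06 in limma. *PDHA1*, its catalytic alpha subunit, fell from 6.69, 6.73 and 6.78 to 6.63, 6.60 and 6.62 log2 CPM (adjusted p of 0.00483). *PDHB*, the beta subunit, overlapped at 6.53, 6.48 and 6.51 against 6.53, 6.42 and 6.54 log2 CPM. The lactate transporters *SLC16A1* and *SLC16A3* each had a log2 fold change of 0.02 and overlapping values, with 95% intervals of -0.05 to 0.10 and -0.06 to 0.10.

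**Figure D3:**
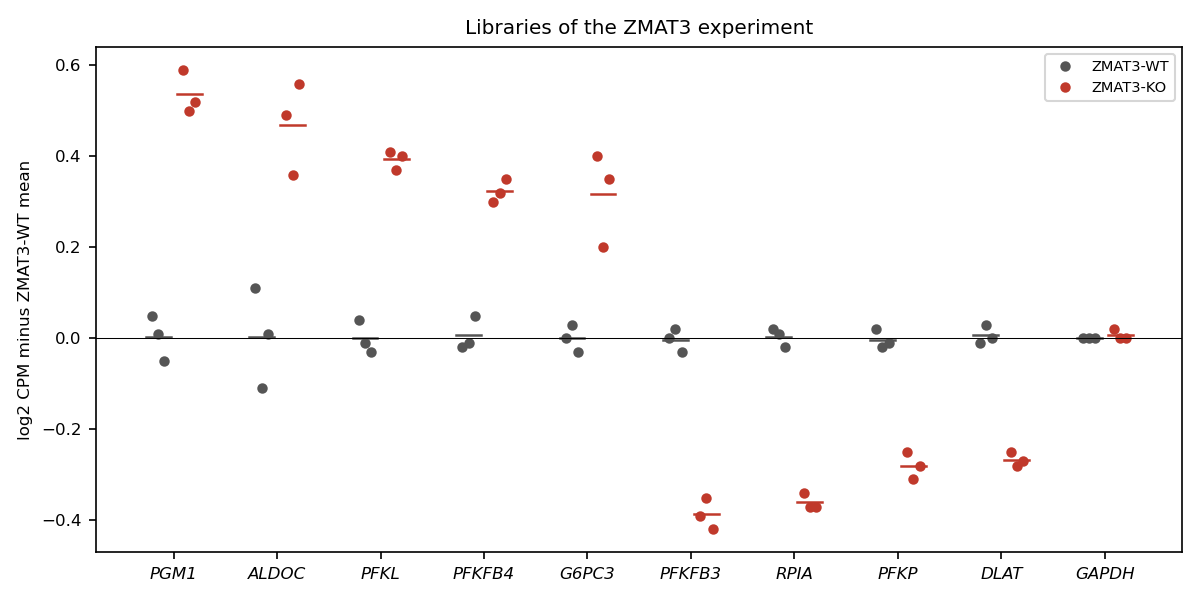
Log2 CPM minus the *ZMAT3*-WT mean for 9 of the genes called in the *ZMAT3* experiment and *GAPDH*, with 3 *ZMAT3*-WT libraries in grey and 3 *ZMAT3*-KO libraries in red, and a bar at each mean. The red points of *PGM1*, *ALDOC*, *PFKL*, *PFKFB4* and *G6PC3* lie above all grey points, those of *PFKFB3*, *RPIA*, *PFKP* and *DLAT* lie below, and those of *GAPDH* sit on the line or at 0.02 above it.

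The second comparison asked what changed when *p53* was knocked down. With 2 libraries a group, genes were called at an unadjusted limma p under 0.05, as the study did in this experiment. Of 34 genes tested, 1 was higher and 3 were lower with si*p53*, or 2.94% and 8.82%, against 5.86% and 9.28% of the 14274 genes tested. None passed an adjusted p of 0.05, which 0.273% of all genes did. The median log2 fold change was 0.055, against -0.04 over all genes tested, and 19 of the 34 were above 0. The median standard error was 0.2185, against 0.0311 in the *ZMAT3* experiment, so most differences of the size seen there were not detectable in these libraries. The replicates did not line up by number either. In 27 of the 34 genes the difference between replicates 1 and 2 had opposite signs in siCTRL and si*p53*.

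*ALDOC* was the gene called higher. It was at 64.66 and 62.31 FPKM with siCTRL against 135.40 and 163.22 FPKM with si*p53*, without overlap. The log2 fold change was 1.23 ± 0.191 (SE), with an unadjusted limma p of 0.00104 and an adjusted p of 0.105. *ALDOA* was at 1709.86 and 1718.24 FPKM with siCTRL against 2003.30 and 2205.05 FPKM with si*p53*, which did not overlap but did not pass (log2 fold change of 0.29, 95% interval of -0.25 to 0.84). *ALDOC* made up 3.64% and 3.50% of the aldolase FPKM with siCTRL and 6.33% and 6.89% with si*p53*. Most aldolase mRNA was therefore *ALDOA* in all 4 libraries. Reads from *ALDOC* can also come from a long non-coding RNA on the opposite strand, with which 11.5% of its 75-base stretches are shared, and strand use in these libraries is not stated.

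The 3 genes called lower were *PGM2*, *PGLS* and *PFKFB4*. *PGM2* (chr4:37826660-37862937) was at 19.87 and 19.17 FPKM with siCTRL against 12.55 and 10.34 FPKM with si*p53*, a log2 fold change of -0.77 ± 0.189 with an unadjusted limma p of 0.00815 and an adjusted p of 0.181. *PGLS*, the lactonase of the oxidative pentose phosphate pathway (chr19:17511636-17521288), was at 33.30 and 33.55 FPKM against 17.82 and 22.05 FPKM, a log2 fold change of -0.75 with an unadjusted limma p of 0.00968 and an adjusted p of 0.189. *PFKFB4*, whose *PFKFB* relatives were not called, was at 12.91 and 12.56 FPKM against 9.98 and 8.09 FPKM, and only just passed (-0.50, unadjusted limma p of 0.0466, adjusted p of 0.319). The groups did not overlap for any of the 3. Leaving out a library ended several of these calls. *PGM2* was at -0.75 without siCTRL replicate 1 (unadjusted limma p of 0.0572). *PGLS* was at -0.76 without siCTRL replicate 1, at -0.75 without siCTRL replicate 2 and at -0.60 without si*p53* replicate 1, with an unadjusted limma p of 0.0562 to 0.0592. *PFKFB4* was at -0.48 and -0.52 without siCTRL replicate 1 or 2 and at -0.35 without si*p53* replicate 2.

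Of the genes grouped with these, *PFKFB3* was at 19.02 and 22.03 FPKM with siCTRL against 19.80 and 15.05 FPKM with si*p53*. *PFKFB2* was at 3.90 and 4.23 against 5.50 and 2.63 FPKM. Both overlapped. *PGM1* was at 46.63 and 47.45 against 52.02 and 50.57 FPKM, separated but not called (log2 fold change of 0.12). The other oxidative genes were *PGD*, at 316.81 and 219.43 against 184.15 and 290.43 FPKM, which overlapped, and *H6PD*, at 2.19 and 2.67 against 1.96 and 1.34 FPKM, which did not pass (-0.55, unadjusted limma p of 0.124).

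The remaining 30 genes had log2 fold changes from -0.61 to 0.52 and were not called. The enolase genes *ENO1*, *ENO2* and *ENO3* had log2 fold changes of 0.45, 0.52 and 0.52, each with a 95% interval that included 0, and *RPIA* had -0.61 with an interval of -1.26 to 0.03. *LDHA* was at 1457.71 and 1164.72 FPKM with siCTRL against 1646.72 and 1803.45 FPKM with si*p53* (log2 fold change of 0.40, interval of -0.18 to 0.99). These genes are named because their groups did not overlap while the test did not call them, a choice made after their values were seen. The groups of *PFKL*, *PFKP*, *ALDOA*, *PGK1*, *LDHB*, *PGM1*, *H6PD*, *TALDO1* and *DLAT* did not overlap either, and these genes were also not called. With 2 libraries a group, values can separate by chance alone. The share of all genes tested whose groups did not overlap was not computed. Separation without a call is therefore a description and not a sign of a change. The intervals leave room for rises of up to 1.02 on the log2 scale in *ENO1* and falls of up to 0.11.

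The experiments share no library, so each gene has a value from each that the other did not use. *ALDOC* rose in both, by 0.47 in *ZMAT3*-KO and by 1.23 with si*p53* on the log2 scale. *PGM2* fell in both, by 0.10 and by 0.77. *PFKFB4* was called in both in opposite directions, at 0.32 in *ZMAT3*-KO and -0.50 with si*p53*. No other gene passed in both, and *PGLS* could only be tested with si*p53*. By the same rules 28.7% of all genes were called higher and 30.1% lower in *ZMAT3*-KO, and 5.86% and 9.28% with si*p53*. The share of all genes called in both was not computed, so these joint calls have no background to be read against. *PGM1*, the largest rise in *ZMAT3*-KO at 0.54, had 0.12 with si*p53*, within an interval of -0.30 to 0.55. *PFKFB3* had -0.39 and -0.24, *RPIA* -0.36 and -0.61, *DLAT* -0.27 and -0.36, and *PFKL* 0.39 and 0.24, while *ENO1* had -0.11 and 0.45. The difference between the experiments was not tested, since their tables were normalized separately.

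The balance between isoforms of a step can be read within each library, where gene length cancels between groups. Of 10 ratios compared in the *ZMAT3* experiment, 7 did not overlap between the groups and 3 did. No share over other gene pairs was computed for this count, and 28.7% of all single genes were called higher and 30.1% lower here. The log2 ratio of *PFKL* to *PFKP* went from -1.66, -1.67 and -1.70 to -1.02, -1.0 and -1.0, a difference of 0.67, and that of *PFKL* to *PFKM* from -0.56, -0.59 and -0.63 to -0.01, -0.09 and 0.00, a difference of 0.56. *PGM1* to *PGM2* went from -0.21, -0.25 and -0.35 to 0.41, 0.31 and 0.39, a pair that shares a step only loosely, as the *PGM2* enzyme acts mainly on pentose phosphates. *PFKFB3* to *PFKFB4* went from 2.55, 2.55 and 2.45 to 1.83, 1.85 and 1.74. In these 4 ratios the shift was 0.56 to 0.71 in size on the log2 scale. Both genes of each ratio moved in opposite directions, so by arithmetic the shift is larger than that of either gene. *ALDOA* to *ALDOC* shifted by -0.49, *ENO1* to *ENO3* by -0.51 and *PFKFB3* to *PFKFB2* by -0.31. *LDHA* to *LDHB* held between 0.29 and 0.34 in all 6 libraries, and *ENO1* to *ENO2* and *SLC16A1* to *SLC16A3* also overlapped. The exact permutation test gave p = 0.1 for each of the 7, the smallest 3 against 3 allow, and 0.143 after adjustment over the 10 ratios, so these shifts are descriptions.

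With si*p53* the same ratios were noisier. *PGM1* to *PGM2* went from 1.23 and 1.30 to 2.04 and 2.28. *PGM1* made up 70.1% and 71.2% of their summed FPKM with siCTRL and 80.6% and 83.0% with si*p53*. The log2 fold change was 0.12 for *PGM1*, not called, and -0.77 for *PGM2*. *ALDOA* to *ALDOC* went from 4.72 and 4.78 to 3.89 and 3.76. *PFKL* to *PFKM* and *PFKL* to *PFKP* shifted by 0.50 and 0.48 without overlap, as *LDHA* to *LDHB* did by 0.30, *PFKFB3* to *PFKFB4* by 0.25 and *SLC16A1* to *SLC16A3* by -0.33. The other 3 of the 10 ratios overlapped, and no share over other gene pairs was computed. Single libraries set the size of 4 of these shifts. *PFKL* to *PFKM* was at 0.32 without si*p53* replicate 2 and *PFKL* to *PFKP* at 0.30 without siCTRL replicate 1. *LDHA* to *LDHB* was at 0.48 and 0.12, and *PFKFB3* to *PFKFB4* at 0.13 and 0.38, without siCTRL replicate 1 and 2. The shift of *PFKFB3* to *PFKFB4* had the opposite sign in the *ZMAT3* experiment. The exact permutation test cannot go below p = 0.33 with 2 against 2 libraries, and it gave that value for each of the 7 ratios that did not overlap (0.476 after adjustment).

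**Figure D4:**
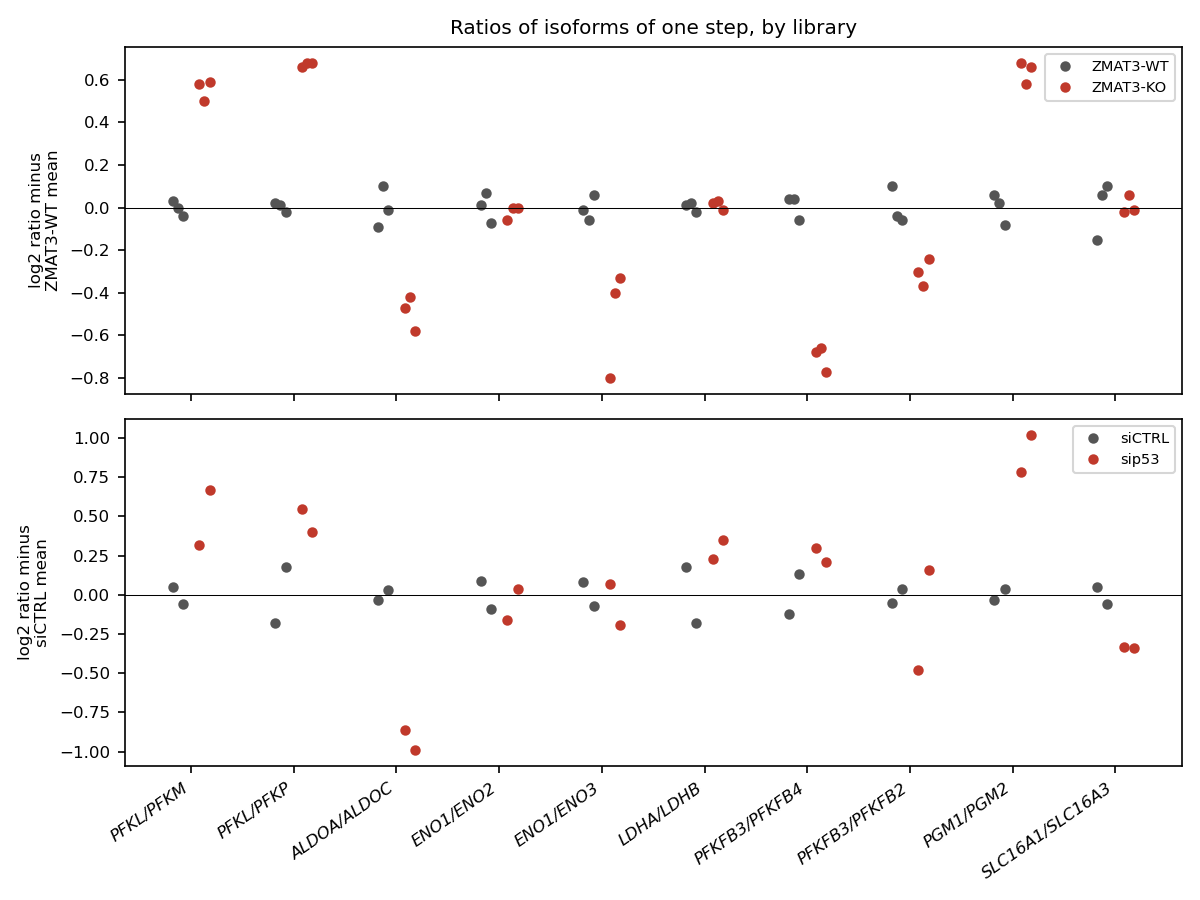
Log2 ratios of isoforms of a step in each library, minus the mean of the control group, for the *ZMAT3* experiment (top, 3 libraries a group) and the siRNA experiment (bottom, 2 libraries a group), with *ZMAT3*-KO or si*p53* in red and controls in grey. In the top panel the red points of *PFKL*/*PFKM*, *PFKL*/*PFKP* and *PGM1*/*PGM2* lie 0.50 or more above the control mean, and those of *LDHA*/*LDHB* mix with the grey ones.

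Step totals in FPKM were less even. Summed enolase went from 1981 and 2270 FPKM with siCTRL to 2936 and 2884 FPKM with si*p53*, 1.37-fold, and summed aldolase from 1775 and 1781 to 2139 and 2368 FPKM. Summed phosphofructokinase went from 271 and 274 to 251 and 237 FPKM and summed phosphoglucomutase from 66.5 and 66.6 to 64.6 and 60.9 FPKM. Summed lactate dehydrogenase went from 2558 and 2292 to 2841 and 3008 FPKM, 1.21-fold, and the enzymes of fructose 2,6-bisphosphate from 35.8 and 38.8 to 35.3 and 25.8 FPKM, 0.808-fold. None of these 6 overlapped, and each had an exact permutation p of 0.33, the smallest possible (0.389 after adjustment over 7 steps). The lactate transporters overlapped, at 213 and 247 against 268 and 235 FPKM. No share over sums of other genes was computed for these counts. The log2 difference of the fructose 2,6-bisphosphate enzymes, -0.31, was -0.53 and -0.08 without si*p53* replicate 1 and 2, and that of phosphoglucomutase, -0.09, was -0.04 without si*p53* replicate 2. In the *ZMAT3* experiment summed enolase was 0.926-fold, a log2 difference of -0.11 that was -0.07 without *ZMAT3*-WT replicate 1. Summed phosphoglucomutase was 1.17-fold there. Because the *PGM2* enzyme acts mainly on pentose phosphates, the phosphoglucomutase sums do not measure a single step.

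The promoters of the genes called in both experiments are shown for the members that moved the same way. RefSeq promoters (GRCh38.p14, 250 bases before to 50 after the start) were found for 33 of the 35 genes, all but *PFKFB2* and *SLC16A1*. They were searched on both strands for ACGTG and for the AP-1 motif of JUN, the factor that the study ties to ZMAT3. The study's JUN peak at *HKDC1* lies in an intron, and sites outside the promoter window were not searched here. ACGTG is a form of the core of the hypoxia response element, to which HIF binds and which glycolytic promoters are known for. Other forms of that core were not searched. The AP-1 motif was searched as TGACTCA, which on both strands covers the middle letters that the study's motif allows, and in a looser form as TGANTCA. The core ACGTG was in 12 of the 33 promoters (36.4%), against 21.4% of all 35114 promoters, and the looser AP-1 form was in 2 (6.06%), those of *ENO2* and *ENO3*, against 7.71%. The stricter form was in 1 (3.03%), that of *ENO2*, against 4.95%. Each listed gene was counted by the first of its RefSeq promoters, while these backgrounds counted every promoter. CACGTG holds the core on both strands. The 250 bases before the start are given 5′ to 3′ on the strand of the gene, with ACGTG or its reverse complement in capitals. They lie on the minus strand at chr17:28576896-28577145 for *ALDOC* and on the plus strand at chr4:37826436-37826685 for *PGM2*.
ALDOC: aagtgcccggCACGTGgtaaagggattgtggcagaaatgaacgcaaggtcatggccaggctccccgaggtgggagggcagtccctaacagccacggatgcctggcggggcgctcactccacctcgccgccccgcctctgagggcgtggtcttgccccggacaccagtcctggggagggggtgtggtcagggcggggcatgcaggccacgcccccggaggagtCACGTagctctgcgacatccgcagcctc
PGM2: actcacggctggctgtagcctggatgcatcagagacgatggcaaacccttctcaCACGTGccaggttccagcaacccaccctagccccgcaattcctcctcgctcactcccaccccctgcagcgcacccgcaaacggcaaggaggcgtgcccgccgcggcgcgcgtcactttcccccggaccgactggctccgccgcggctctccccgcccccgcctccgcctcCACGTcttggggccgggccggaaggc

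Both stretches hold a CACGTG far upstream and an ACGTG on the opposite strand close to the start. *ALDOC* rose and *PGM2* fell in both experiments, and any part of these letters in that was not tested. *PFKFB4*, called in opposite directions, and *PGM1*, *PFKL*, *PFKFB3*, *RPIA* and *PGLS* hold none of these motifs in the searched window. ACGTG is there in *G6PC3*, *LDHA*, *PGK1*, *PGD* and *GPI*, which rose in *ZMAT3*-KO, and in *DLAT*, which fell. The remaining called genes hold none. A match is a description of letters and not a binding site.

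Genes of the same pathways outside the 35 were taken from a list of 51, of which 32 had a row in the *ZMAT3* table and 37 in the siRNA table. In *ZMAT3*-KO 14 of the 32 rose and 9 fell (43.8% and 28.1%), against 28.7% and 30.1% of all genes, so the share of falls was near that background. Of these, 4 rises and 1 fall passed 1.5-fold as well, which 8.96% of all genes did. *PRPS1*, which turns ribose 5-phosphate into the nucleotide precursor PRPP (chrX:107628428-107651993), stood far apart from all of them. It was 2.36, 2.47 and 2.55 log2 CPM in *ZMAT3*-WT and 6.84, 6.81 and 6.81 in *ZMAT3*-KO, a 20.5-fold rise (adjusted p of 2.66e-15, limma). The steps that feed it, *RPIA*, *PGD* and *TKT*, had log2 fold changes of -0.36, 0.13 and 0.00. With si*p53*, *PRPS1* was at 51.69 and 55.35 FPKM against 49.18 and 49.25 FPKM with siCTRL (log2 fold change of 0.12, unadjusted limma p of 0.512).

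Of the genes that bring glucose in and phosphorylate it, the hexokinase *HKDC1* was 3.68, 3.62 and 3.68 log2 CPM in *ZMAT3*-WT and 5.51, 5.45 and 5.41 in *ZMAT3*-KO, a rise of 1.80. The glucose transporter *SLC2A1* was 7.85, 7.81 and 7.85 against 6.11, 6.03 and 6.13 log2 CPM, a fall of 1.75, and *HK2*, at 6.82, 6.85 and 6.81 against 6.49, 6.52 and 6.46 log2 CPM, fell by 0.34 (adjusted p of 3.76e-12, 2.58e-13 and 9.9e-07, limma). These groups did not overlap. *HKDC1* and *SLC2A1* thus changed by more than 3-fold, against at most 1.45-fold in the 33 listed genes. The other genes of this group with a row moved less than *HK2*. *HK1* had a log2 fold change of -0.19 and was called lower, and *ADPGK* had -0.05 and was not called. Beyond the entry of glucose, *PRPS1* rose 20.5-fold, as given above. Whether the size of a change goes with the place in the pathway was not tested. *PDHX*, a structural subunit of the pyruvate dehydrogenase complex, fell by 0.45, from 5.83, 5.87 and 5.82 to 5.42, 5.37 and 5.38 log2 CPM. *PDK1*, the kinase that turns the complex off, rose by 0.64, from 2.98, 2.85 and 2.88 to 3.54, 3.61 and 3.48 log2 CPM. *TIGAR*, a p53 target that lowers fructose 2,6-bisphosphate, fell by 0.33, from 5.43, 5.46 and 5.38 to 5.11, 5.08 and 5.08 log2 CPM. None of these 3 overlapped between the groups (adjusted p of 2.47e-07, 2.8e-06 and 8.07e-06, limma).

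With si*p53* 1 of 35 other genes tested was higher and 4 were lower at an unadjusted limma p under 0.05 (2.86% and 11.4%, against 5.86% and 9.28% of all genes tested), and none passed an adjusted p of 0.05. *HKDC1* was at 1.16 and 1.58 FPKM with siCTRL against 2.71 and 2.97 FPKM with si*p53*. *SLC2A1* was at 189.91 and 225.07 against 101.64 and 73.11 FPKM, and *TIGAR* at 30.77 and 39.84 against 17.80 and 12.89 FPKM. None of these overlapped, with log2 fold changes of 1.01, -1.26 and -1.20. *RBKS*, the ribokinase, was at 1.29 and 1.43 against 0.45 and 0.55 FPKM, and *BPGM*, which makes 2,3-bisphosphoglycerate, at 11.95 and 11.82 against 8.33 and 8.64 FPKM. Their log2 fold changes were -1.29 and -0.48, and that of *RBKS* was -0.65 with 1 FPKM added in place of 0.1. *HKDC1* was not called without siCTRL replicate 1 (0.81) or si*p53* replicate 2 (0.95), *RBKS* not without siCTRL replicate 2 (-1.22), and *BPGM* not when any of the 4 libraries was left out (-0.51 to -0.46), with a replicate block (unadjusted limma p of 0.17) or with libraries centred on their median gene (-0.41, unadjusted limma p of 0.0606).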

How the data were processed

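RNA-seq was performed from HCT116 cells in 10 libraries, and samples were grouped by their titles. For the *ZMAT3* libraries the authors used Cutadapt for trimming, STAR on hg38 for alignment and RSEM for gene quantification, and they deposited log2 CPM. How log2 CPM were made is not stated, and in the deposited table all 6 libraries share the same distribution of values. The authors deposited FPKM for the siRNA libraries, and the processing of these is not stated in the paper. The submitters' processing notes name CASAVA 1.8.2, TopHat2 2.0.8 and FastQC 0.11.2, with hg19 and hg38. The FPKM columns carry no unit label, and the unit was read from the values: over 671 genes with a single transcript, the log2 ratio of the authors' mean signal to the deposited value followed log2 transcript length with a slope of 0.865 (r = 0.871). The deposited tables also hold the authors' fold changes and ratios, their p-values, a standard error and a test score, which were not used. No reads or counts were analysed, so depth is unknown and counting error could not be given.

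Each experiment was fitted by itself in R 4.3.3 with limma 3.58.1, using lmFit and then eBayes with its trend option, and two-sided p-values were adjusted by Benjamini-Hochberg over all genes. The deposited log2 CPM were used without a filter. FPKM were tested as log2(FPKM + 0.1) where the mean over the 4 libraries reached 0.5 FPKM, which understates the change of low genes. The fits were tested on simulated data. Isoform ratios and step totals were compared by exact permutation tests over libraries, two-sided. Gene coordinates, canonical transcripts and shared 75-base stretches come from GENCODE 44 on hg38. The siRNA row deposited under C12orf5 was matched to *TIGAR* by its Ensembl identifier.

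The 35 genes and the lists were chosen with earlier results of these data known. Values in every library are given for listed genes past the test, for their isoforms, for *GAPDH* and for genes that passed in both experiments. Of the other pathway genes, the 6 with the lowest p in each experiment among those past the test are named, with *TIGAR*, *HKDC1* and *SLC2A1*. Isoforms with near-identical copies can share reads. Of the 75-base stretches of *ALDOA*, 89.3% are also in an overlapping gene model, as are 69.1% of those of *LDHB*. Of those of *PGAM1*, 50.1% are in other genes, mainly copies, so the values of these genes are less certain. Smaller shares are in other genes for the called *DLAT* (24.5%), *PDHA1* (22.5%), *PGLS* (17.9%) and *GPI* (11.2%). The same holds for *RPE* (31.5%) and *GAPDH* (25.4%), among others. The level of the gene targeted by the siRNA pool is not reported here.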

Additional observations from a re-analysis of the deposited data

How the results depend on the processing

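In the *ZMAT3* experiment the counts of 12 higher and 9 lower genes stayed within 1.5 times under every alternative run (log2(CPM + 1), a filter on low values, centring, no variance trend, a replicate block, an unadjusted p, and each library left out), as did those of the other pathway genes, and no named gene changed direction. *ENO1* and *TALDO1* were not called without a variance trend (adjusted p of 0.0583 and 0.131, limma). In the siRNA experiment the counts depended on the setting. The single higher gene became 2 when libraries were centred on their median gene and 0 at an adjusted p of 0.05. The 3 lower genes became 0 at an adjusted p and 1 to 3 with a library left out. Of the other pathway genes, the single higher one became 0 with a minimum of 5 FPKM or an adjusted p and 0 to 2 with a library left out, and the 4 lower ones became 0 at an adjusted p and 2 to 4 with a library left out. *PFKFB4* was not called with centring, without a variance trend, with a replicate block, or with each library scaled to the same sum, an alternative added after seeing the data.

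Replicate numbers did not pair the libraries of the *ZMAT3* experiment (correlations of -0.039, -0.022 and -0.093 between the deviations of same-numbered libraries), and the replicate block gave 13 higher and 9 lower genes. In the siRNA experiment the same-numbered libraries correlated at -0.616, and the replicate block left 1 higher and 2 lower. Crossing the numbers, an alternative added after seeing this, called 12 higher and 9 lower of the 34 listed genes tested, where it called 16.9% of all genes higher and 21.9% lower, and 7 of the other pathway genes higher. Whether the libraries were paired in that way is not given by the labels. The isoform ratio of *ENO1* to *ENO3* in *ZMAT3*-KO moved from -0.51 to -0.32 with 1 CPM added.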

Other observations

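*PRPS1* and its paralogue *PRPS2* encode the same activity, and their log2 ratio within a library was below 0 in the *ZMAT3*-WT libraries and above 0 in all others. It was -4.47, -4.41 and -4.31 in *ZMAT3*-WT (CPM), 0.19, 0.23 and 0.17 in *ZMAT3*-KO (CPM), 0.74 and 0.61 with siCTRL and 0.56 and 0.74 with si*p53* (FPKM). The units and the normalization differ between the tables, and the siRNA values are per length while the CPM values are not. The ratios of *ZMAT3*-KO and of the transfected cells did not overlap either. This comparison was made after the values were seen and was not tested.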
